A study of Mus musculus with 100 samples.

Results

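The regions described here belong to 10 genes that encode NF-κB subunits and inhibitors of NF-κB signaling: Nfkbia, Nfkbie, Nfkbid, Nfkbiz, Tnfaip3, Rela, Rel, Relb, Nfkb1 and Nfkb2. They were taken by gene name from 15 tables of ChIP-seq tag counts, as every region whose nearest annotated gene start belonged to 1 of the 10, which gave 1499 of 610301 table rows and between 34 and 177 rows per table. A site bound in several experiments was counted in each table, so the 1499 rows are not 1499 separate sites. Distances are to the nearest annotated start. Some of the genes have several starts, so distances given for the same gene can be counted from different starts. Tnfaip3 had the most rows (368), followed by Nfkbiz (324), Nfkb1 (247), Nfkbia (204) and Rel (152), and Nfkbid (48), Nfkbie (46), Rela (46), Nfkb2 (41) and Relb (23) had the fewest. The cells were bone marrow-derived macrophages (BMDMs) of C57BL/6 mice, cultured with vehicle (Veh) or for 6 h with KLA (Kdo2 lipid A, an agonist of the lipopolysaccharide receptor TLR4). In Wild type cells p65, the corepressor NCoR, its partner histone deacetylase HDAC3, the acetyltransferase p300, the coactivator PGC1b, the kinase ERK1, the AP-1 protein Fosl2 and the lineage factor PU.1 were immunoprecipitated with and without KLA. PGC1b was also measured with KLA after the solvent DMSO or the ERK inhibitor LY3214996 (ERKi), beside DMSO without KLA, and NCoR was measured with ERKi and KLA. H3K27ac, the acetylation of histone H3 on lysine 27 that marks active promoters and enhancers, was measured in 3 designs. The first compared NCoR flox/flox cells (WT) with NCoR flox/flox, LysMCre cells (NKO), each with Veh or KLA. The next compared Wild type cells given DMSO, DMSO with KLA, or KLA after the HDAC3 inhibitor RGFP966, and the last compared PGC1b flox/flox cells with PGC1b flox/flox, LysMCre cells, each with Veh or KLA. ERK1 and p300 were also measured in Wild type bone marrow cells on Day 0 and Day 4 of culture towards osteoclasts with RANKL. LysMCre is a recombinase driven by the lysozyme M promoter in myeloid cells, and the flox/flox controls carried no Cre, so the presence of Cre and the loss of the target gene cannot be told apart, and the deletions themselves were not analysed here.

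NF-κB factors are dimers of the subunits p65 (Rela), c-Rel (Rel), RelB (Relb), p50 (from Nfkb1) and p52 (from Nfkb2). In resting macrophages IκBα (Nfkbia) and IκBε (Nfkbie) hold dimers in the cytoplasm, TLR4 signaling leads to their degradation, and the freed dimers bind κB motifs in promoters and enhancers. Many of the genes bound encode the regulators themselves: IκBα and IκBε are made anew, A20 (Tnfaip3) removes ubiquitin chains upstream of the IκB kinase, and the nuclear proteins IκBζ (Nfkbiz) and IκBNS (Nfkbid) bind NF-κB on chromatin.

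Each of the 35 groups had 2 libraries, with 4.30 to 21.5 M tags each; levels are in tags per 10 M, library by library in replicate order. Promoter regions of macrophage marker genes were present in the tables: among the PU.1 regions 8 of 8 markers had a promoter region, against 1 of 4 T cell markers, 1 of 4 B cell markers and 0 of 3 fibroblast markers. The HDAC3 library of KLA replicate 2 stood apart, with 46.5% of its tags in regions and 5.69 M tags, against 31.2% to 34.5% in the other 3 libraries of that table. In bulk samples fewer cells with a signal and less signal per cell cannot be told apart. A region was called where edgeR's quasi-likelihood test, with library totals as the scale and Benjamini-Hochberg adjustment over all regions of the table, gave an adjusted p below 0.05 and the change exceeded 2-fold. The standard error (SE) follows each log2 fold change. A second scaling, TMM, sets the typical region of each library as unchanged, and it is given where it moved a result. Where a value is given without 1 library, its group is left with a lone library, which is assumed to vary like the other groups. Nothing stated that the replicates were separate animals, so the p-values measure only the spread between these libraries.

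The κB, AP-1 and PU.1 motifs were searched in the p65 regions. Of the 150 p65 regions of the 10 genes, 25 (16.7%) matched the κB consensus in the central 200 bp on either strand, against 4004 of 52624 regions (7.61%) in the whole p65 table. The AP-1 motif TGANTCA was found in 16% against 21.7%, and the PU.1 motif GAGGAAGT in 9.33% against 9.57%. These shares are descriptions, and a match does not show that the letters were bound. The promoter or distal p65 region with the most tags of each gene was searched over its whole length, together with Nfkb1 +51.2 kb, and 14 of these 18 regions held a match. In each of the 14 regions only the match nearest the centre was taken, and further matches are not marked. The 11 of these that lay outside exons are printed on the gene's strand, from the mm10 assembly, to show the sequence at the regions whose p65 values follow. The match is in capitals (its complement where the match reads on the other strand), with up to 40 bases on either side. The match at Nfkb1 +20.8 kb has the letters of the classical κB element of the immunoglobulin kappa enhancer.
Nfkbia promoter, chr12:55492648-55492716, minus strand: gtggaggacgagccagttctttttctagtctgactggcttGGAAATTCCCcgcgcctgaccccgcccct
Nfkbie promoter, chr17:45555554-45555643, plus strand: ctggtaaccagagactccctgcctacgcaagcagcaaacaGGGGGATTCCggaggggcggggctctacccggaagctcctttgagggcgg
Nfkbid promoter, chr7:30422185-30422274, plus strand: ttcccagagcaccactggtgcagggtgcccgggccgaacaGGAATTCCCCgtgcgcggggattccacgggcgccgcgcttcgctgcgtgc
Tnfaip3 promoter, chr10:19015411-19015462, minus strand: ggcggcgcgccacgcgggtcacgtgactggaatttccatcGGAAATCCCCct
Tnfaip3 +2.5 kb, chr10:19009391-19009480, minus strand: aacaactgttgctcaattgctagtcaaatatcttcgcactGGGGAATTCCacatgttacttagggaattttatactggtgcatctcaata
Rela +11.4 kb, chr19:5648906-5648995, plus strand: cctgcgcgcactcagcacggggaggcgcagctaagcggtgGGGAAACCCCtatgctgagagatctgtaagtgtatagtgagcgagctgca
Rel promoter, chr11:23771491-23771580, minus strand: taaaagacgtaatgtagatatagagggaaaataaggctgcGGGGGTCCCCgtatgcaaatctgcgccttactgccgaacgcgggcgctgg
Rel +16.5 kb, chr11:23754378-23754467, minus strand: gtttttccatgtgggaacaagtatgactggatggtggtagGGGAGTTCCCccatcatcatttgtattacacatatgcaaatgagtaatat
Relb promoter, chr7:19629486-19629575, minus strand: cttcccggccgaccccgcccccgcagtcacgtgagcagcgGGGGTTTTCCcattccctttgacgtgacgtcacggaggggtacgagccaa
Nfkb1 +20.8 kb, chr3:135670730-135670819, minus strand: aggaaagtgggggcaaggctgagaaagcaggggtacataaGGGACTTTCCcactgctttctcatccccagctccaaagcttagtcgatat
Nfkb1 +51.2 kb, chr3:135640315-135640404, minus strand: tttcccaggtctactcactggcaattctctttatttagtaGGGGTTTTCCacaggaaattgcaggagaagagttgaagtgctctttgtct
The Nfkbiz, Nfkb1 and Nfkb2 promoter regions also held matches. In each of them the match nearest the centre lay in an exon, and no match is printed. No match was found in the p65 region at the Rela promoter or in the strongest distal regions of Nfkbia, Nfkbid and Nfkbiz.

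p65 was higher after KLA at regions of all 10 genes. Of 150 member regions, 134 (89.3%) were called higher and 0 lower by edgeR, where 57.0% of the 52629 regions tested were called higher and 5.43% lower. The median log2 fold change was 2.72 over the member regions and 1.46 over all regions. The scaling mattered here: with TMM 84 member regions were called higher and 5 lower, beside 27.6% and 21.3% of all regions, with medians of 1.49 and 0.24, and DESeq2 called 82 higher and 5 lower. At an unadjusted p under 0.05, 138 member regions differed in either direction. By gene, 40 of 41 Tnfaip3 regions, 31 of 33 Nfkbiz regions, 22 of 26 Nfkb1 regions, 16 of 18 Nfkbia regions and 12 of 15 Rel regions were called higher. Nfkbie (4 of 4), Nfkb2 (3 of 3) and Relb (2 of 2) were complete, Rela had 3 of 4, and Nfkbid had 1 of 4. Promoter regions, within 2 kb of a gene start, were called higher at 28 of 35 with a median of 2.06 (29.2% of all promoter regions), and distal regions at 106 of 115 with a median of 2.99 (63.8% of all distal regions).

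**Figure D1:**
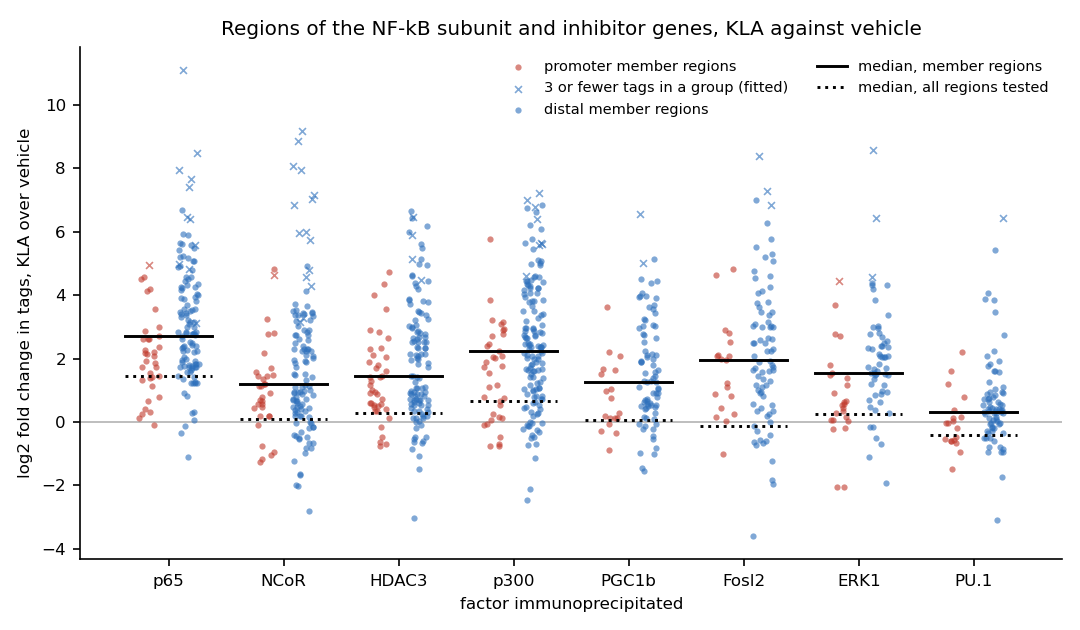
Log2 fold change in tags, KLA over vehicle, for each region of the 10 genes (red, within 2 kb of a gene start; blue, distal), by factor. Solid lines give the median of the member regions and dotted lines that of all regions tested, such as 2.72 and 1.46 for p65 or 0.32 and -0.41 for PU.1, and crosses are fitted values of regions with 3 or fewer tags in a group.

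Among the inhibitors, the p65 region at the Nfkbia promoter (12:55492558-55492828, 46 bp upstream of the start) had 179 and 207 tags per 10 M in the Veh libraries and 610 and 681 after KLA. The groups did not overlap, and p65 rose by 1.74 on the log2 scale (SE 0.18, adjusted p = 1.51e-05). An intergenic region 25.6 kb beyond the Nfkbia start went from 69.2 and 59.7 to 370 and 415 tags per 10 M, a log2 change of 2.6 (SE 0.21). The Nfkbie promoter went from 105 and 74.6 to 261 and 333 (log2 change 1.72, SE 0.24). The largest promoter change among the inhibitors was at Nfkbiz, 175 bp upstream of an annotated start, with 34.2 and 48.5 tags per 10 M in Veh and 455 and 517 after KLA. That is a log2 change of 3.56 (SE 0.23, adjusted p = 1.10e-06). A region 123.5 kb downstream of another Nfkbiz start, with 91.1 and 89.5 in Veh against 482 and 497, changed by 2.44 (SE 0.19). Nfkbid was the exception: its promoter region with the most tags rose from 46.4 and 34.5 to 125 and 112 (1.55, SE 0.29), while the region at +6.8 kb had 19.3 and 28.0 in Veh against 13.4 and 8.21 after KLA. Regions at its other annotated starts had 49.9 and 44.8 in Veh and 51.4 and 51.3 after KLA (0.12, SE 0.32), and 67.4 and 81.1 against 76.1 and 62.9 (-0.09, SE 0.28). Neither was called, but with TMM both were called lower (-1.11 and -1.31). The change at +6.8 kb was not called with library totals (log2 -1.12, SE 0.54, adjusted p = 0.0858), but it was with TMM (-2.32) and without the Veh library of replicate 1 (-1.36).

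Tnfaip3 has a pair of annotated starts, and distances here are to the nearest. The p65 region at the upstream start, 9 bp inside the gene, held 157 and 158 tags per 10 M in Veh and 627 and 688 after KLA (log2 change 2.06, SE 0.18). An intronic region at +2.5 kb went from 102 and 152 to 643 and 687 (2.39, SE 0.21). The widest contrast was 62.9 kb upstream, in intergenic sequence (10:19078192-19078402), where p65 went from 20.1 and 2.80 to 489 and 532 tags per 10 M. This region had little p65 before KLA and nearly as much as the promoter afterwards, with a log2 change of 5.44 (SE 0.42, adjusted p = 2.42e-06). The size rested on the Veh libraries, with 7.46 without Veh replicate 1 and 4.66 without Veh replicate 2.

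Among the subunit genes, the promoters of Rela (89.3 and 66.2 in Veh, 194 and 233 after KLA) and Relb (107 and 91.4 against 232 and 265) had the smallest p65 changes, 1.46 (SE 0.24) and 1.32 (SE 0.21) on the log2 scale. At the Rel promoter p65 went from 89.3 and 82.0 to 394 and 393 (2.20, SE 0.20), and at the Nfkb2 promoter from 91.9 and 115 to 373 and 377 (1.86, SE 0.20). The introns of Rel and Nfkb1 showed larger log2 changes than the promoters of these genes. The Rel intron at +16.5 kb went from 22.8 and 59.7 to 441 and 461 tags per 10 M (3.46, SE 0.33). The Nfkb1 promoter went from 77.1 and 80.2 to 378 and 439 (2.38, SE 0.20), its intron at +20.8 kb (3:135670631-135670836) from 7.88 and 23.3 to 547 and 569 (5.17, SE 0.33). At +51.2 kb (3:135640271-135640480) the Nfkb1 intron had 2.63 and 6.53 in Veh and 456 and 504 after KLA, the member region with the lowest p (6.70, SE 0.33, adjusted p = 6.40e-07). Without Veh replicate 2 the values were 4.30 at Rel +16.5 kb, 6.13 at Nfkb1 +20.8 kb and 7.46 at Nfkb1 +51.2 kb, and without Veh replicate 1 Nfkb1 +20.8 kb gave 4.58, all of them called. At the 3′ end of Rela, +11.4 kb, p65 had 61.3 and 83.0 in Veh and 118 and 134 after KLA. That change was not called (log2 0.80, SE 0.26), had the opposite sign with TMM (-0.42), and was called without the Veh library of replicate 2 (1.04).

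Most promoter calls rested on the scaling. With TMM the log2 changes at the promoter regions with the most tags of Nfkbia, Nfkbie, Nfkbid, Tnfaip3, Rela, Rel, Relb and Nfkb2 were all above 0, from 0.09 at Relb to 0.97 at Rel, and none was called. Those at Nfkbiz (2.34) and Nfkb1 (1.15) were, as were all the distal rises named above.

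**Figure D2:**
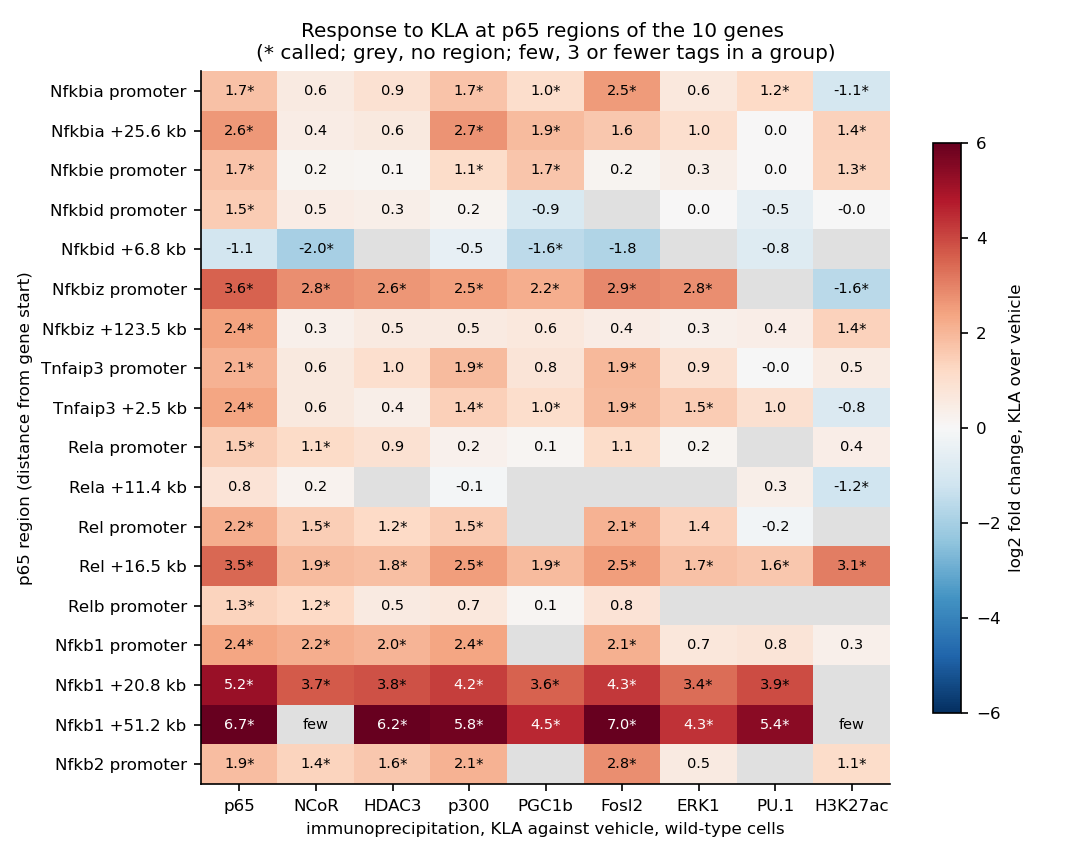
Log2 fold change, KLA over vehicle, at the strongest p65 regions of the 10 genes (rows) for 8 factors and H3K27ac (columns, the overlapping or nearest region of each table); an asterisk marks a call, grey no region, and few a region with 3 or fewer tags in a group. The Nfkb1 introns at +20.8 and +51.2 kb were called higher for every factor measured there, with p65 changes of 5.17 and 6.70.

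The next comparisons asked where NCoR, HDAC3, p300 and PGC1b were gained or lost on the same genes with KLA. Each was called higher at more member regions than lower: NCoR at 78 of 150 higher and 9 lower (all regions 23.4% and 16.7%), HDAC3 at 88 of 157 and 3 (27.5% and 11.3%), p300 at 129 of 177 and 3 (42.1% and 12.9%), and PGC1b at 52 of 98 and 2 (16.4% and 6.35%). The member medians were 1.18, 1.45, 2.24 and 1.26 on the log2 scale, beside 0.10, 0.27, 0.65 and 0.06 over all regions. With TMM p300 was called higher at 113 and lower at 8. The NCoR count was 47 without KLA replicate 1 and 46 without KLA replicate 2, and the HDAC3 count 59 and 60 without Veh replicates 1 and 2, from 87 and 91 in all. By gene, NCoR was called higher at 22 of 37 Tnfaip3 regions, 20 of 35 Nfkbiz regions and 17 of 26 Nfkb1 regions, but at 4 of 14 Nfkbia regions, with 2 of that gene's regions called lower. p300 was called higher at 20 of 22 Nfkbia regions, 43 of 48 Tnfaip3 regions and 25 of 30 Nfkb1 regions, and at 0 of 6 Nfkbid and 0 of 2 Relb regions.

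Nfkbia differed between its promoter and its gene body. At the promoter NCoR had 216 and 215 tags per 10 M in Veh and 351 and 283 after KLA, a log2 difference of 0.55 (SE 0.18) that was under the 2-fold limit. In the intron at +0.7 kb NCoR fell, from 440 and 511 to 204 and 189 (-1.27, SE 0.17, adjusted p = 3.59e-04). At the transcript end, +3.8 kb, it fell from 458 and 576 to 132 and 129 (-1.98, SE 0.19, adjusted p = 6.54e-05). These were the regions of the gene with the most NCoR before KLA, and the Veh and KLA libraries were far apart at both. HDAC3 at +3.8 kb fell as well, from 533 and 465 to 145 and 214 (-1.49, SE 0.41). That call was lost without Veh replicate 1 (-1.38), without Veh replicate 2 (-1.58) and with a replicate block (-1.50). At +0.7 kb HDAC3 had 389 and 306 in Veh against 140 and 314, overlapping groups and no call (-0.64, SE 0.39), although it was called with TMM (-1.01) and without the KLA library of replicate 2 (-1.31).

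**Figure D3:**
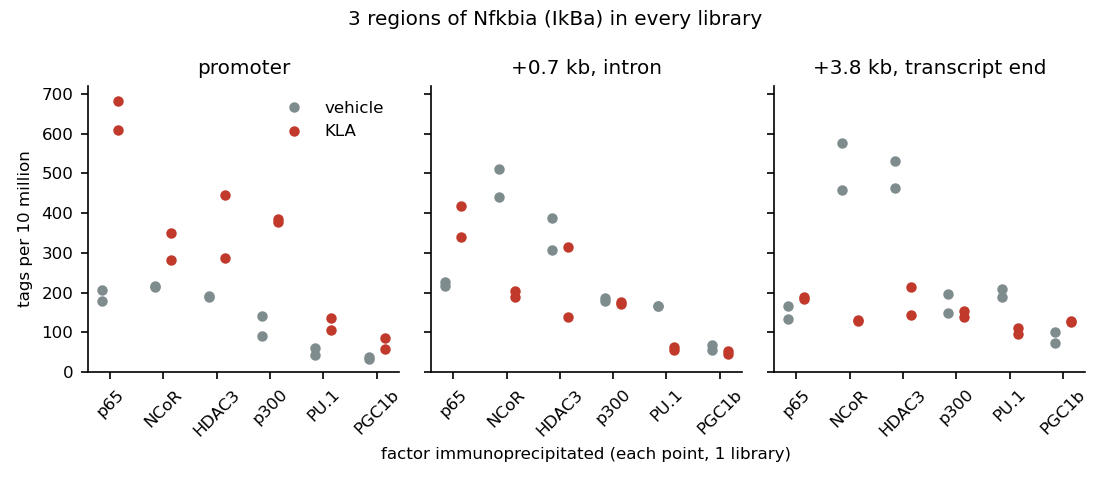
Tags per 10 M in each library (grey, vehicle; red, KLA) at the promoter, the +0.7 kb intron and the +3.8 kb transcript end of Nfkbia, by factor. NCoR fell from 440 and 511 to 204 and 189 in the intron and from 458 and 576 to 132 and 129 at the transcript end, whereas p65 at the promoter rose to 610 and 681.

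p300 at the same gene rose at the promoter, from 141 and 90.7 to 385 and 378 tags per 10 M (1.72, SE 0.18). In the intron it had 186 and 178 in Veh and 176 and 171 after KLA, and at +3.8 kb 196 and 149 against 154 and 138. Neither was called (-0.07, SE 0.15, and -0.24, SE 0.17). PGC1b at the transcript end had 74.6 and 101 in Veh and 129 and 126 after KLA, also not called (0.54, SE 0.27).

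At Tnfaip3 -62.9 kb, Rel +16.5 kb and Nfkb1 +20.8 and +51.2 kb, where p65 rose, NCoR, HDAC3, p300 and PGC1b were called higher too. At Tnfaip3 -62.9 kb NCoR went from 5.97 and 9.42 to 230 and 240 tags per 10 M (4.91, SE 0.32), and HDAC3 from 8.73 and 6.08 to 206 and 321 (5.15, SE 0.46). p300 there went from 24.5 and 18.4 to 466 and 475 (4.45, SE 0.18), and PGC1b, with 3 tags in its Veh libraries together, reached 113 and 51.5. In the Nfkb1 intron at +20.8 kb NCoR went from 49.0 and 31.8 to 532 and 494 (3.67, SE 0.23), HDAC3 from 32.0 and 37.6 to 389 and 609 (3.83, SE 0.43). p300 there went from 25.7 and 12.5 to 335 and 352 (4.16, SE 0.23) and PGC1b from 7.64 and 3.25 to 66.6 and 60.1 (3.56, SE 0.46). The +51.2 kb intron was close to empty before KLA for all of these: HDAC3 went from 2.18 and 3.32 to 146 and 283 (6.18, SE 0.51), p300 from 1.25 and 8.54 to 267 and 272 (5.78, SE 0.33). NCoR, with 1 tag in its Veh libraries, reached 157 and 190, and PGC1b went from 1.18 and 3.25 to 65.5 and 45.2 (4.52, SE 0.54). In the Rel intron at +16.5 kb NCoR went from 74.1 and 71.8 to 285 and 258 (1.89, SE 0.20) and p300 from 42.6 and 59.8 to 288 and 288 (2.49, SE 0.18). HDAC3 there went from 85.1 and 87.9 to 247 and 369 (1.82, SE 0.38), a call lost without Veh replicate 1 (1.80) or Veh replicate 2 (1.85). PGC1b there went from 17.6 and 25.6 to 99.4 and 65.2 (1.90, SE 0.36). Single libraries moved the changes at the emptiest regions by over 1.5 times without ending a call: without Veh replicate 1 p300 gave 4.78 at Nfkb1 +20.8 kb and 4.97 at +51.2 kb, and PGC1b 4.25 at +20.8 kb. Without Veh replicate 2 p300 gave 7.67 and PGC1b 5.45 at +51.2 kb. In the opposite direction, p300 fell 59.5 kb upstream of Rel, from 42.6 and 32.9 to 9.72 and 7.57 (-2.12, SE 0.42).

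The Nfkbiz promoter gained each of them. NCoR went from 51.4 and 70.6 to 431 and 413 (2.79, SE 0.21), HDAC3 from 67.7 and 56.4 to 286 and 488 (2.63, SE 0.40) and p300 from 43.3 and 46.7 to 240 and 254 (2.46, SE 0.18). The HDAC3 call was lost without Veh replicate 2 (2.51). The Rel promoter gained NCoR, from 75.3 and 81.2 to 236 and 196 (1.46, SE 0.22), while a stronger NCoR region 1.2 kb inside Rel had 269 and 300 in Veh and 173 and 161 after KLA (-0.77, SE 0.18, under 2-fold). At Nfkbie +2.1 kb NCoR had no tag in Veh and 34.8 and 26.3 per 10 M after KLA, which was at least 17.0-fold higher when the Veh group was set to 3 tags, and the call was lost without KLA replicate 1, where edgeR's fitted value was 7.79 on the log2 scale. NCoR fell at Nfkbid +6.9 kb, from 37.0 and 43.6 to 15.4 and 4.84 (-2.01, SE 0.55), a call lost without KLA replicate 2 (-1.38) and with a larger fall without KLA replicate 1 (-3.03).

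The 3′ part of Nfkb1 went the other way. At +88.6 kb, in an intron, NCoR fell from 70.5 and 90.6 to 8.10 and 14.5 (-2.80, SE 0.41) and HDAC3 from 80.0 and 68.0 to 13.5 and 0 (-3.03, SE 0.50, not called by DESeq2). The HDAC3 library with no tag there is the one that stood apart; without it the value was -2.44, and without KLA replicate 1 no tag was left in the KLA group. p300 fell there from 25.1 and 45.3 to 4.09 and 8.65 (-2.46, SE 0.50, and -3.08 without KLA replicate 2) and PU.1 from 91.0 and 76.6 to 9.16 and 10.2 (-3.11, SE 0.25). No p65 region overlapped this position, and the nearest was at +89.2 kb. PGC1b fell at +94.4 kb, from 49.4 and 45.1 to 19.7 and 15.4 (-1.45, SE 0.39), a call lost without Veh replicate 1 (-1.38) or Veh replicate 2 (-1.51).

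**Figure D4:**
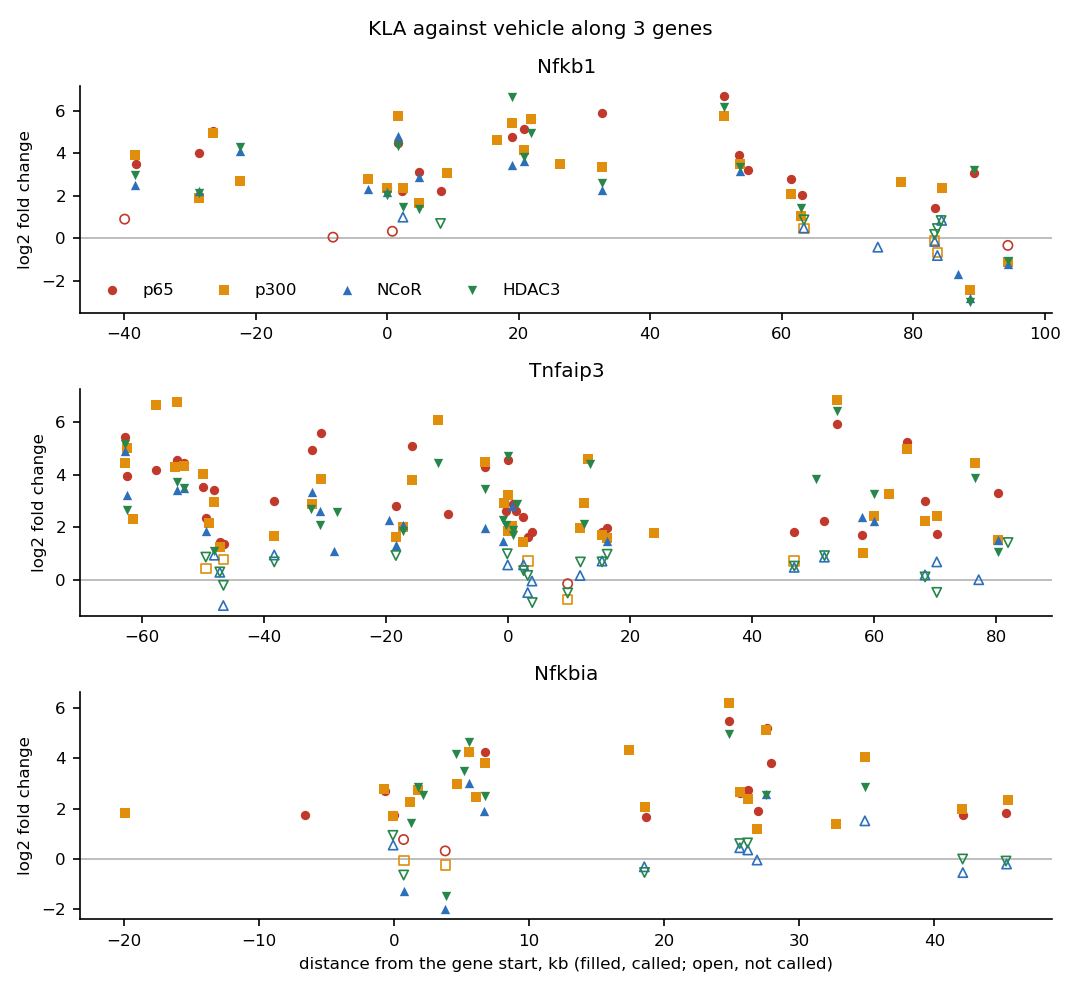
Log2 fold change, KLA over vehicle, of each p65, p300, NCoR and HDAC3 region against its distance from the gene start for Nfkb1, Tnfaip3 and Nfkbia; filled symbols were called, open ones were not, and regions with 3 or fewer tags in a group are left out. NCoR and HDAC3 fell at +88.6 kb of Nfkb1 (-2.80 and -3.03, the latter -2.44 without the KLA library that had no tag there) and at +3.8 kb of Nfkbia (-1.98 and -1.49).

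Fosl2, ERK1 and PU.1 were compared in the same way. Fosl2 was called higher at 46 of 97 member regions and lower at 1 (all regions 11.4% and 4.19%), with medians of 1.95 and -0.14. Its KLA libraries lay far apart, and without Veh replicate 1 or without Veh replicate 2 no member region was called. ERK1 was called higher at 30 of 82 and lower at 0 by edgeR (all regions 10.3% higher), with medians of 1.53 and 0.26. TMM called 1 lower, 55 regions had an unadjusted p under 0.05 in either direction, and the count was 15 without KLA replicate 1 and 12 without KLA replicate 2. PU.1 was called higher at 21 of 94 and lower at 3, the reverse of the background of 4.53% higher and 21.7% lower, with medians of 0.32 and -0.41 and 33 higher with TMM.

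At the Nfkb1 introns these factors rose with the others. Fosl2 at +51.2 kb went from 5.64 and 1.05 to 372 and 468 (7.0, SE 0.96), at +20.8 kb from 31.0 and 27.3 to 382 and 740 (4.26, SE 0.77). Without Veh replicate 1 the values were 8.43 and 4.36, without Veh replicate 2 6.17 and 4.17, and none was called. PU.1 at +51.2 kb went from 2.07 and 2.49 to 103 and 96.2 (5.41, SE 0.32) and at +20.8 kb from 11.4 and 4.98 to 134 and 120 (3.89, SE 0.23, and 4.65 without Veh replicate 1). ERK1 at +20.8 kb went from 9.44 and 9.25 to 109 and 87.1 (3.37, SE 0.48). At Nfkb1 +88.6 kb Fosl2 had 63.5 and 40.9 in Veh and 0 and 7.01 after KLA (-3.59, SE 1.12), a call lost without Veh replicate 1 (-3.35) or Veh replicate 2 (-3.97) and with the replicate block (-3.90). The value was -2.86 without KLA replicate 1.

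At the inhibitor genes, Fosl2 at the Nfkbia promoter went from 86.1 and 70.3 to 270 and 634 (2.54, SE 0.71), a call lost without Veh replicate 1 (2.69) or Veh replicate 2 (2.39) and with the replicate block (2.42). The value was 1.79 without KLA replicate 2. PU.1 fell in the Nfkbia intron at +0.6 kb, from 166 and 167 to 62.8 and 56.7 (-1.48, SE 0.13), next to the NCoR region that fell. PU.1 rose at Tnfaip3 -53.1 kb, from 11.9 and 14.9 to 159 and 136 (3.46, SE 0.20), and in the Rel intron at +16.5 kb, from 55.9 and 41.7 to 146 and 156 (1.61, SE 0.14). ERK1 at Tnfaip3 +2.6 kb went from 45.6 and 47.4 to 128 and 143 (1.54, SE 0.33), a call lost without KLA replicate 2 (1.45). At Tnfaip3 +53.9 kb ERK1 had 1 tag in the Veh libraries and 76.2 and 68.1 tags per 10 M after KLA.

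The ERK inhibitor series asked whether these gains needed ERK activity. In its own controls, PGC1b was called higher with DMSO and KLA than with DMSO alone at 74 of 143 member regions and lower at 1 (all regions 16.4% and 1.23%), with medians of 1.67 and 0.45 and 52 higher with TMM. The count was 48 without DMSO Veh replicate 1. PGC1b at Tnfaip3 -38.4 kb went from 37.4 and 30.6 to 342 and 317 (3.25, SE 0.30), at Tnfaip3 -62.9 kb from 5.69 and 11.7 to 142 and 156 (4.18, SE 0.47), and at Nfkb1 +20.8 kb from no tag to 174 and 99.7, at least 84.1-fold higher. It had 10.6 and 29.1 at Nfkbid +6.3 kb with DMSO alone and no tag with KLA, at least 6.76-fold lower.

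With ERKi, PGC1b differed from DMSO and KLA at 1 of 143 member regions (0.286% of all regions called in either direction). At an unadjusted p under 0.05 there were 28, and DESeq2 called 6. Counts were simulated for DMSO and KLA against DMSO with 200 of 53474 regions changed 3-fold, and only 2.5% of these were called. In the measured contrast 16.4% of all regions were called higher, so the simulated share is not the share of changes found here. Few calls still do not show that ERKi left PGC1b as it was. The region called, Tnfaip3 +12.4 kb, had 65.1 and 75.9 tags per 10 M with DMSO and KLA and 191 and 246 with ERKi and KLA (1.62, SE 0.34, adjusted p = 0.0369). The call was lost without any of the 4 libraries (log2 changes of 1.52 and 1.74 without DMSO KLA replicates 1 and 2, 1.79 and 1.43 without ERKi KLA replicates 1 and 2). PGC1b at Nfkb1 +20.8 kb had 174 and 99.7 against 90.7 and 136, overlapping groups (-0.26, SE 0.39), and the sign changed without DMSO KLA replicate 1 (0.19). At the Nfkbia promoter it had 118 and 128 against 90.7 and 98.3 (-0.38, SE 0.37, not called). The DMSO and KLA libraries are the same in both PGC1b comparisons.

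NCoR was called lower with ERKi and KLA than with KLA alone at 79 of 154 member regions and higher at 0 by edgeR, close to the background of 48.6% of all regions lower, and the medians were -1.19 and -1.20. The ERKi libraries had 15.0% and 15.8% of their tags in regions and the KLA libraries 33.3% and 34.2%. With TMM 3 member regions were called higher and 3 lower, beside 3.45% and 3.38% of all regions, and the all-region median moved to -0.04. DESeq2 called 9 member regions in all, and at an unadjusted p under 0.05 there were 103 in either direction. The count was 43 without KLA replicate 1 and 47 without KLA replicate 2. NCoR at Nfkbiz +74.7 kb had 242 and 246 with KLA and 65.9 and 56.9 with ERKi and KLA, a log2 change of -1.99 (SE 0.21) that became -0.82 with TMM and was then not called. At Nfkb1 +20.8 kb it had 532 and 496 against 233 and 219 (-1.18, SE 0.18, with TMM -0.02). At the Nfkbia promoter it had 375 and 300 against 159 and 148 (-1.13, SE 0.18, with TMM 0.034, and -0.97 and not called without KLA replicate 1). At Nfkbia +25.6 kb, with 175 and 135 against 104 and 138, the value was -0.35 (SE 0.23) and with TMM 0.82, so relative to the other regions of the library it lay on the other side of 0. The ERKi libraries carry another date code in their labels than the KLA libraries, so date and inhibitor cannot be told apart. The labels of these KLA libraries name no DMSO, unlike those of the PGC1b series, so a part of the solvent cannot be told apart either. Those KLA libraries also serve the comparison of KLA with Veh.

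In bone marrow cells cultured towards osteoclasts, p300 was called higher on Day 4 than on Day 0 at 33 of 45 member regions and lower at 0 by edgeR (all regions 62.2% higher, medians 2.01 and 1.84). TMM called 4 higher (8.8% of all regions) and 0 lower, DESeq2 called 0, and at an unadjusted p under 0.05 there were 33. The count was 7 without Day 4 replicate 1 and 11 without Day 4 replicate 2. The 4 of 7 osteoclast marker promoters with a p300 region had a median of 12.1 tags per 10 M on Day 0 and 102 on Day 4. p300 at the Nfkbia promoter went from 20.2 and 12.8 to 170 and 116 (3.02, SE 0.42, with TMM 1.4) and in the Rel intron at +16.5 kb from 2.64 and 6.39 to 51.8 and 79.4 (4.03, SE 0.68, with TMM 2.43 and without Day 0 replicate 1 3.32). Both were called with either scaling and neither by DESeq2 (1.55 and 2.49). At Nfkbia +25.6 kb it went from 9.67 and 19.2 to 84.1 and 89.6 (2.71, SE 0.48), with TMM 1.09 and no call. By gene, 11 of 12 Tnfaip3, 10 of 12 Nfkbia and 4 of 4 Rel regions were called higher.

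ERK1 was called higher on Day 4 at 1 of 34 member regions (2.33% of all regions), with medians of 0.87 over the members and 1.00 over all regions. With TMM and with DESeq2 none was called, 9 had an unadjusted p under 0.05, and the count was 2 without Day 0 replicate 1. The region lay 28 bp inside a start of Nfkbid, with 2.58 and 2.1 tags per 10 M on Day 0 and 65.3 and 41.8 on Day 4 (4.42, SE 0.79, adjusted p = 0.0217). It was not called with TMM (3.45), without Day 4 replicate 1 (4.08) or without Day 4 replicate 2 (4.71). The second Day 4 library carries another replicate number and date code in its description. Unlike the other ERK1 libraries of Day 0 and Day 4, its description does not name NCoRWT.

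H3K27ac on the 10 genes was compared between Veh and KLA in WT and NKO macrophages. In WT cells 15 of 40 member regions tested (42 listed) were called higher and 4 lower, where 6.49% and 3.72% of all 18504 regions were, with medians of 0.69 and 0.13. In NKO cells 13 were called higher and 3 lower (2.75% and 7.96% of all regions), with medians of 0.64 and -0.20. The WT count of 19 was 12 without Veh replicate 2. At Nfkbia H3K27ac fell at the start, from 113 and 109 to 42.1 and 64.8 (-1.06, SE 0.23, and -0.77 and not called without KLA replicate 1), while it rose at +0.6 kb, from 71.9 and 72.8 to 194 and 174 (1.35, SE 0.17). It also rose at Nfkbia +25.6 kb, from 64.3 and 54.0 to 128 and 181 (1.38, SE 0.20). In NKO cells the start went from 170 and 102 to 44.6 and 30.6 (-1.82, SE 0.24). A 1000 bp window around this start, in the designs described later, had 331 and 352 with DMSO and 488 and 413 with DMSO and KLA (0.40, SE 0.19). It had 461 and 478 against 418 and 474 in PGC1b flox/flox cells (-0.07, SE 0.08). With LysMCre it had 357 and 359 against 241 and 271 (-0.48, SE 0.09). With TMM the values were 0.83, 0.36 and 0.13, and none was called with either scaling. At the Nfkbiz start H3K27ac fell from 98.4 and 75.4 to 22.6 and 33.1 in WT cells (-1.64, SE 0.27) and from 94.4 and 88.2 to 24.4 and 18.8 in NKO cells (-2.06, SE 0.27), at a promoter where p65 and p300 rose. Its flank went the other way: 0.7 kb upstream H3K27ac rose from 21.4 and 21.9 to 46.5 and 44.8 in WT cells (1.07, SE 0.30, not called with TMM) and from 30.2 and 29.0 to 63.7 and 90.3 in NKO cells (1.37, SE 0.29). Over a 1000 bp window around this start in the DMSO and KLA table described later, the values were 160 and 147 with DMSO and 302 and 262 with KLA (0.88, SE 0.21, not called, but called higher with TMM, 1.30). Nfkbie gained H3K27ac 0.9 kb upstream, from 8.20 and 5.60 to 40.9 and 49.6 (2.72, SE 0.42), and at +2.1 kb, from 22.7 and 24.5 to 72.9 and 106 (1.92, SE 0.25).

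In WT cells H3K27ac was called higher at some distal regions that gained p65 and not at others. Tnfaip3 -62.8 kb went from 2.52 and 2.04 to 38.4 and 41.4 in WT cells (4.09, SE 0.51) and from 4.42 and 4.06 to 36.1 and 40.3 in NKO cells (3.15, SE 0.47). The Rel intron at +16.4 kb went from 4.41 and 2.04 to 23.3 and 31.0 in WT cells (3.08, SE 0.55, and 3.68 without Veh replicate 1). Nfkb1 +51.2 kb, with 2 tags in its WT Veh libraries together, reached 16.4 and 23.4 in WT cells. Tnfaip3 +2.4 kb, beside a p65 region that rose, had 14.5 and 14.3 in WT Veh and 5.03 and 11 in WT KLA (-0.85, SE 0.53, not called). The 1000 bp window there, in the designs described later, went the other way. KLA changed it by 0.77 (SE 0.198) with DMSO, 0.70 (SE 0.095) in PGC1b flox/flox cells and 0.575 (SE 0.102) with LysMCre. None of these was called with library totals, but with TMM each was called higher (1.2, 1.125 and 1.191). Among subunit promoters, Nfkb2 at +0.2 kb went from 24.6 and 26.5 to 116 and 104 in WT cells (2.1, SE 0.24) and from 22.9 and 19.2 to 92.9 and 118 in NKO cells (2.33, SE 0.26). Nfkb2 -0.2 kb (19:46304278-46304728) is counted from another annotated start than Nfkb2 +0.2 kb (19:46306019-46306235). At -0.2 kb the WT values were 134 and 129 against 262 and 302 (1.10, SE 0.14), a call lost with TMM (0.95) and without KLA replicate 2 (0.99). Relb at +0.2 kb had 172 and 171 against 271 and 234 (0.56, SE 0.14, under 2-fold). H3K27ac fell at the 3′ end of Rela, +11.4 kb, from 40.4 and 43.8 to 22 and 14.5 (-1.20, SE 0.35), a call lost without Veh replicate 1 (-1.25), Veh replicate 2 (-1.14) or KLA replicate 2 (-0.94).

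Between the genotypes few member regions differed. With Veh 0 of 40 were called by edgeR (1.0% of all regions in either direction, 10 members at an unadjusted p under 0.05, and 0 by TMM). With KLA 1 was called lower in NKO (0.789%), and 1 differed in its response to KLA (0.697%, tested as the interaction of genotype and KLA). Both calls were Nfkbia +18.7 kb, an intergenic region at 12:55473770-55474071. It had 63.0 and 56.0 tags per 10 M in WT Veh, 76.7 and 113 in WT KLA, 63.4 and 69.1 in NKO Veh, and 41.4 and 45.8 in NKO KLA. The 2 genotypes did not overlap with KLA (-1.12, SE 0.24, adjusted p = 0.00805), a call lost without WT KLA replicate 2 (-0.82), NKO KLA replicate 1 (-1.05) or NKO KLA replicate 2 (-1.19). The response was 0.67 (SE 0.23) in WT and -0.61 (SE 0.24) in NKO cells, neither of them called, and the difference between them was -1.28 (SE 0.33, adjusted p = 0.0457). That call was lost with TMM (-0.93), with DESeq2 (-0.94) and with a replicate block (-1.26). It was also lost without WT Veh replicates 1 and 2 (-1.36 and -1.19), WT KLA replicate 2 (-0.98), NKO Veh replicates 1 and 2 (-1.34 and -1.22) or NKO KLA replicates 1 and 2 (-1.20 and -1.35), each left out alone. In the first intron of Rel, +1.2 kb, H3K27ac rose with KLA in NKO cells from 49.4 and 34.8 to 86.0 and 112 (1.24, SE 0.26, and 0.99 and not called without NKO Veh replicate 2). The NKO to WT difference there with KLA was 0.84 (SE 0.25, adjusted p = 0.0743), not called.

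**Figure D5:**
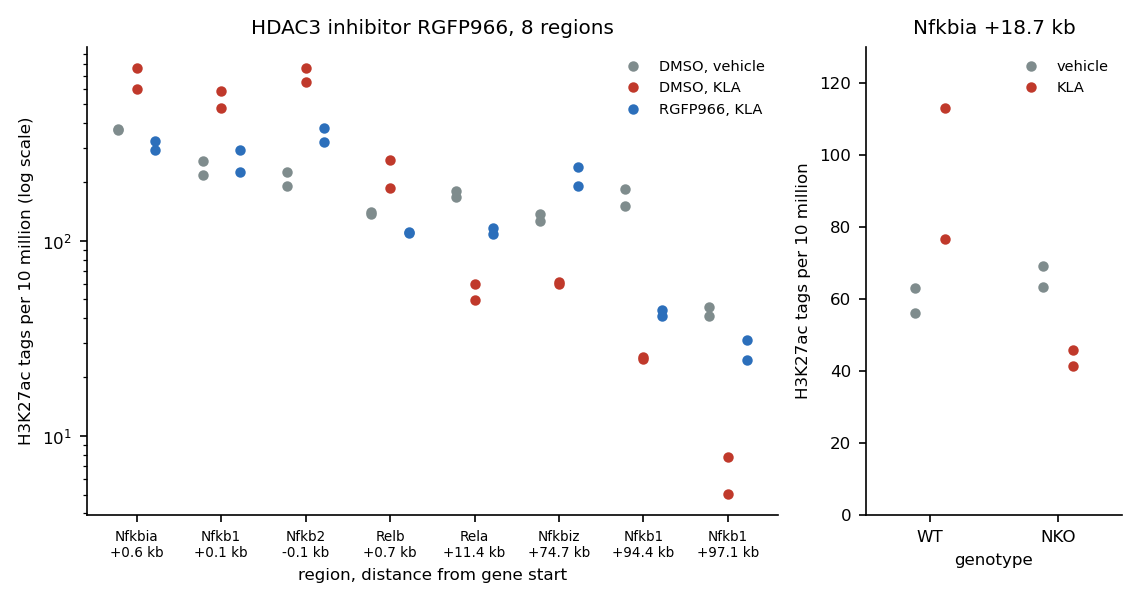
H3K27ac tags per 10 M in each library at 8 regions in the RGFP966 experiment (left, log scale) and at Nfkbia +18.7 kb in WT and NKO cells (right). With RGFP966 the promoter-side regions of Nfkbia, Nfkb1, Nfkb2 and Relb were lower than with DMSO and KLA, whereas Nfkbiz +74.7 kb rose from 61.5 and 59.8 to 239 and 190.

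The RGFP966 experiment asked what HDAC3 inhibition did to H3K27ac during the KLA response. With DMSO, KLA raised H3K27ac at 11 of 36 member regions tested (38 listed) and lowered it at 7 (6.73% and 28.1% of all regions, medians 0.52 and -0.42), and with TMM at 17 and 4 (12.5% and 17.2%). RGFP966 and KLA against DMSO and KLA gave 10 higher and 4 lower (26.9% and 9.53%, medians 0.33 and 0.39), and with TMM 4 higher and 10 lower (16.1% and 18.9%), so the split turned with the scaling, and with library totals it was near the background. By place, 4 of 10 promoter regions were called lower and 0 higher, beside 23.2% and 6.56% of all promoter regions, and 10 of 26 distal regions were called higher and 0 lower, beside 40.1% and 0.684% of all distal regions. With TMM 7 promoter regions were called lower and 0 higher (44.2% and 3.95% of all promoter regions), and 4 distal regions higher and 3 lower (23.9% and 2.62% of all distal regions).

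The 4 regions called lower with RGFP966 under library totals lay at gene starts. Nfkbia +0.6 kb had 374 and 369 tags per 10 M with DMSO, 765 and 599 with DMSO and KLA, and 326 and 293 with RGFP966 and KLA. The last step was -1.14 (SE 0.19), and -0.95 and not called without DMSO KLA replicate 1. The Nfkb1 promoter had 218 and 255, then 587 and 478, then 291 and 224 (-1.05, SE 0.19), and the Nfkb2 promoter 224 and 191, then 765 and 651, then 377 and 319 (-1.03, SE 0.19). Both calls were lost without DMSO KLA replicate 1 (-0.89 and -0.91) and without RGFP966 KLA replicate 2 (-0.87 and -0.91). Relb +0.7 kb had 136 and 140, then 259 and 185, then 110 and 110 (-1.02, SE 0.21, and -0.75 and not called without DMSO KLA replicate 1). With TMM the 4 values lay between -1.36 and -1.49 and all were called, and the distal regions Nfkbia +25.6 kb (-1.18), Nfkbia +26.8 kb (-1.15) and Tnfaip3 +2.4 kb (-1.26) were then called lower as well.

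The values of single distal regions are given for both contrasts side by side, and both contrasts share the DMSO and KLA libraries. Nfkbiz +74.7 kb had 136 and 127 with DMSO, 61.5 and 59.8 with DMSO and KLA (-1.11, SE 0.24, and -0.69 and not called with TMM), and 239 and 190 with RGFP966 and KLA (1.82, SE 0.23). Rela +11.4 kb had 167 and 180, then 60.2 and 49.7 (-1.65, SE 0.24), then 108 and 117 (1.02, SE 0.24). The last call was lost with TMM (0.69), without DMSO KLA replicate 2 (0.90) and without RGFP966 KLA replicate 2 (0.97). In the 3′ part of Nfkb1, +97.1 kb had 45.7 and 41.0, then 7.77 and 5.05, then 30.9 and 24.4, the last step being 2.06 (SE 0.42). Nfkb1 +94.4 kb had 184 and 151, then 24.6 and 25.3 (-2.75, SE 0.27), then 44.1 and 41.3 (0.78, SE 0.29, not called). Nfkb1 +74.6 kb, called lower with KLA (-1.36), was not called with RGFP966 either (0.51). Nfkbiz +130.9 kb and Nfkb1 -28.6 kb were called higher with KLA (1.35 and 1.79) and higher again with RGFP966 (1.5 and 1.02). The largest rise with KLA was at Nfkbia +26.8 kb, from 169 and 138 to 973 and 786 (2.52, SE 0.20), with 542 and 466 after RGFP966. The Nfkb2 promoter rose by 1.77 (SE 0.20) in the same contrast.

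The PGC1b flox/flox cells repeated the KLA contrast with and without LysMCre. In flox/flox cells 7 of 36 member regions tested (38 listed) were called higher and 5 lower (5.22% and 25.6% of all regions, medians 0.21 and -0.45), and with TMM 12 and 5 (9.84% and 13.8%). With LysMCre 7 were called higher and 6 lower (4.18% and 32.5%, medians 0.30 and -0.62), and with TMM 16 and 3 (10.8% and 14.3%). H3K27ac at the transcript end of Nfkbia, +3.8 kb, went from 93.7 and 130 to 462 and 460 in flox/flox cells (2.06, SE 0.11) and from 84.8 and 98.8 to 301 and 242 with LysMCre (1.56, SE 0.12). This is the region where NCoR and HDAC3 fell in Wild type cells. The Nfkb2 promoter went from 258 and 267 to 686 and 720 (1.42, SE 0.08) and with LysMCre from 204 and 216 to 710 and 673 (1.72, SE 0.08). Nfkb1 +94.4 kb fell from 157 and 146 to 36.1 and 24.8 (-2.31, SE 0.20) and with LysMCre from 162 and 126 to 29.6 and 26.1 (-2.37, SE 0.21). Rela +11.4 kb fell from 196 and 188 to 69.2 and 62.0 (-1.55, SE 0.16) and from 150 and 142 to 53.5 and 40.4 (-1.65, SE 0.18).

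Between these genotypes no member region was called by edgeR. The background was 0.397% with Veh, 7.52% with KLA and 5.37% for the interaction, and 15, 20 and 12 member regions had an unadjusted p under 0.05. TMM called 0, 1 and 0. With KLA the count was 2 without flox/flox KLA replicate 1 or 2 and 1 without LysMCre KLA replicate 1, and for the interaction it was 1 without flox/flox Veh replicate 2 or KLA replicate 2. The Nfkbia promoter had 418 and 474 in flox/flox cells with KLA and 241 and 271 with LysMCre. The genotypes did not overlap there, and the log2 difference of -0.80 (SE 0.09, adjusted p = 5.74e-18) was under the 2-fold limit, with -0.41 by TMM and by DESeq2. The LysMCre libraries with KLA had 22.4% and 22% of their tags in regions and the flox/flox libraries with KLA 29.9% and 30.1%.

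The other genes of the pathway were counted for comparison, as a list of 26 kinases, adaptors, ubiquitin enzymes and IκB proteins. With library totals p65 was called higher at 159 of their 220 regions and lower at 5 (all regions 57.0% and 5.43%). NCoR was called higher and lower at 76 of 210 and 17 (23.4% and 16.7%), and HDAC3 at 86 of 202 and 11 (27.5% and 11.3%). PGC1b was called at 58 of 169 and 6 (16.4% and 6.35%), and p300 at 140 of 264 and 24 (42.1% and 12.9%). PU.1 was called higher at 24 of 179 and lower at 19 (all regions 4.53% and 21.7%), Fosl2 at 32 of 129 and 1 (11.4% and 4.19%). ERK1 was called higher at 28 of 122 and lower at 1 (all regions 10.3% higher). H3K27ac was called higher at 6 of 62 and lower at 4 in WT cells (all regions 6.49% and 3.72%), and at 2 and 3 in NKO cells (2.75% and 7.96%). The p65 region with the lowest p among those that rose was 78.3 kb upstream of Ikbke, the gene of an IκB kinase relative, with 20.1 and 17.7 tags per 10 M in Veh and 469 and 495 after KLA. Among those that fell it was 197 kb downstream of Map3k7, the gene of the kinase TAK1, with 13.1 and 13.1 in Veh and 1.34 and 0.684 after KLA. For H3K27ac they were Traf2 +12.4 kb, which went from 119 and 96.8 to 205 and 247, and a region 4.5 kb upstream of Tbk1, which went from 51.7 and 49.4 to 21.4 and 27.6. With ERKi, NCoR was called lower at 105 of 222 pathway regions and higher at 2, near the background of 48.6% lower. PGC1b was called at 0 of 211 with ERKi (0.286% of all regions in either direction). With RGFP966 H3K27ac was called higher at 7 of 60 and lower at 4, beside 26.9% and 9.53% of all regions.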

How the data were processed

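ChIP-seq tag counts per region were deposited by the authors as 15 tables with 70 libraries in 35 groups (2 per group). Of 100 samples, 30 inputs had no column of their own and were not used. Per the study's methods and labels, reads were aligned with Bowtie2 to mm10, peaks were found with HOMER and kept by IDR, merged across the libraries of a table, and raw tags were counted with at most 3 tags per position. H3K27ac was counted over ATAC-seq IDR peaks, in 1000 bp windows for the Pgc1b and RGFP966 tables. Program versions are not given in the sources used here. Cells were fixed with formaldehyde for H3K27ac and with DSG and formaldehyde for the factors. The Veh group of p300 is labelled as KLA at 0 h.

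From the deposited counts, tags per 10 M used the library totals in the table headers. Each of 25 comparisons was fitted over its whole table with edgeR 4.0.16 (R 4.3.3, quasi-likelihood test, library totals as the scale, no further normalization), after keeping regions with 4 tags (factors) or 16 tags (H3K27ac) in at least 1 library. Alternatives were TMM, DESeq2 1.42.0, no filter, a replicate block and each library left out. Tables were drawn with Python 3.11.15, pandas 2.3.3 and matplotlib 3.10.9. A group with no tag was set to 3 tags for a bound on the fold change, and member medians were unchanged when such regions were put at their bound (23 of 23 comparisons). As few regions were involved, such as 4 of 143 for PGC1b with DMSO, the medians could hardly move. On simulated counts with 200 regions changed 3-fold in each table, 0% to 99.5% were recovered, and 40 of 1377 calls (2.9%) were false. The share was 0% for ERK1 on Day 4 and for Fosl2, 2.5% for PGC1b with DMSO, 7.5% for ERK1 with KLA and 14.5% for p300 on Day 4. The simulation gave all regions of a table the same spread and changed few of them, whereas 11.4% of Fosl2 regions were called higher in the data. The shares are therefore not those of the measured comparisons, and low counts of calls there say little.

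The members and gene lists were chosen with earlier results of these data known. The regions named were the promoter and the distal region with the most tags of each member and the called region with the lowest p in each direction; some were then followed across tables after their values had been seen. Depth limits precision through counting error, and no 2 libraries of a group differed by as little as sampling noise (lowest chi-square per region 1.36).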

Additional observations from a re-analysis of the deposited data

Results flagged for a closer look

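H3K27ac at Nfkbia +18.7 kb differed between the 2 genotypes in its KLA to Veh contrast, although neither contrast was called on its own. Both WT KLA libraries (76.7 and 113 tags per 10 M) lay above both WT Veh libraries (63.0 and 56.0), and both NKO KLA libraries (41.4 and 45.8) lay below both NKO Veh libraries (63.4 and 69.1). In the 1000 bp window there, KLA changed H3K27ac by 0.21 (SE 0.12) in PGC1b flox/flox cells and by -0.19 (SE 0.13) with LysMCre. With TMM these values were 0.64 and 0.42, and none was called. With DMSO the change was 0.94 (SE 0.21), not called with library totals but called with TMM (1.37). The difference between the WT and NKO responses was tested as an interaction and gave -1.28 on the log2 scale (SE 0.33, adjusted p = 0.0457, edgeR). It was not called with TMM (-0.93), DESeq2 (-0.94) or a replicate block (-1.26). It was also not called when any of 7 of the 8 libraries was left out, with values from -0.98 to -1.36; without WT KLA replicate 1 it was still called.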

How the results depend on the processing

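Of 125 region results, leaving out the filter changed none, TMM kept the direction and call of 104 and DESeq2 of 103. Counts of member regions called moved beyond 1.5 times as follows. With TMM and DESeq2, p65 gave 89 and 87, NCoR with ERKi 6 and 9, ERK1 on Day 4 0 and 0, p300 on Day 4 4 and 0, and the NKO interaction 0 and 0. DESeq2 gave 6 for PGC1b with ERKi, and TMM gave 1 for LysMCre against flox/flox with KLA. The sign reversed for p65 at Rela +11.4 kb (-0.42 and -0.38 with TMM and DESeq2), for NCoR with ERKi at Nfkbia +25.6 kb (0.82 and 0.83) and at the Nfkbia promoter (0.034 and 0.047), and for PGC1b with ERKi at Nfkb1 +20.8 kb without DMSO KLA replicate 1 (0.19; -0.61 to 0.19 over the 4 libraries left out). The cause was not tested.

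Deviations of same-numbered libraries showed little correlation (31 correlations, -0.027 to 0.026). Counting noise in regions with few tags lowers such correlations, so they cannot show whether libraries were paired. With the replicate block the counts were 17 for Fosl2, 0 for PGC1b with ERKi and 0 for the NKO interaction, the other counts stayed within 1.5 times, and 5 of 125 region calls were lost.

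Leaving out each library in turn gave counts of 106 to 136 for p65, 46 to 92 for NCoR, 59 to 105 for HDAC3, 36 to 61 for PGC1b, 12 to 27 for ERK1, 118 to 135 for p300, 0 to 69 for Fosl2, 24 to 27 for PU.1, 48 to 65 for PGC1b with DMSO, 0 to 0 for PGC1b with ERKi, 43 to 74 for NCoR with ERKi, 0 to 2 for ERK1 and 7 to 36 for p300 on Day 4. For H3K27ac they were 12 to 16 (WT), 12 to 15 (NKO), 0 to 0, 0 to 1 and 0 to 1 (NKO against WT with Veh, with KLA and the interaction), 17 to 21 (DMSO), 11 to 12 (RGFP966), 12 to 13 (flox/flox), 12 to 14 (LysMCre), and 0 to 0, 0 to 2 and 0 to 1 (LysMCre against flox/flox with Veh, with KLA and the interaction). The share of p65 regions with a κB match was 17.3% in 400 bp, against 9.62% of all regions.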
